A study of Mus musculus with 7 samples.

Results

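Human chromosome 21 is one of the chromosomes gained in hyperdiploid acute lymphoblastic leukemia (ALL), and its gene content is spread over 3 mouse chromosomes. The genes described here are mouse orthologs of human chromosome 21 genes, chosen by name from a list and found as rows of the deposited expression table. All 47 were present among its 24341 genes, with 29 on mouse chromosome 16, 5 on chromosome 17 and 13 on chromosome 10. The rule that chose them used no expression value, but the list was drawn up with earlier results of these data known. Of the 47, 44 passed the filter on low values (a sum of at least 10 FPKM over the 7 samples) and were tested, among 10541 genes tested in all.

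RNA-seq was performed on B-cell precursor (BCP) cells from leukemic (3 samples) and preleukemic (4 samples) Eμ-Ret mice, a strain that develops hyperdiploid B-ALL. All 7 samples came from mice hemizygous for the Emu-Ret transgene, a Ret fusion driven by the immunoglobulin heavy chain enhancer in B-lineage cells, on the BALB/c background, so no group lacked the transgene. Preleukemic mice were young and healthy, leukemic mice were older and moribund with overt disease, and age therefore cannot be told apart from disease. The cells were spleen cells of the BCP surface phenotype. The paper describes sorting of preleukemic cells. Its RNA-seq methods do not say whether leukemic samples were sorted, and in its in vitro work most leukemic spleens were not enriched. The labels number the samples as replicates of a group without naming the mice. The p-values therefore measure only the spread between these samples.

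Orthologs of human chromosome 21 genes lie in 3 blocks of conserved gene order in the mouse, the largest of them on chromosome 16. That block holds transcription factors of blood development such as Runx1, a cluster of cytokine receptor genes, the dosage-sensitive kinase gene Dyrk1a and the nucleosome-binding protein gene Hmgn1. In human B-ALL with a gain of chromosome 21, all of these genes are gained together, whereas in mice a gain of chromosome 16, 17 or 10 would each carry a different subset. Copy number was not measured in the values used here.

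Depth read from the low values was 13.4 to 16.3 M fragments per sample (M for mega), and a transcript of 1500 bases at 1 FPKM in the shallowest sample corresponded to 20.1 fragments, with a counting error of 22.3%. FPKM is scaled for transcript length and sequencing depth, so levels can be set side by side between genes. All 13 B-cell precursor markers were present, and their summed level was 3283 to 4941 FPKM in leukemic and 6092 to 7669 FPKM in preleukemic samples, with 4 of 13 lower in leukemic samples. Markers of several other cell types were higher in leukemic samples. The summed level of 10 erythroid genes, all 10 higher, was 3952 to 19692 FPKM against 147 to 1847 FPKM, that of 10 macrophage genes (6 higher) 44.6 to 231 against 10.9 to 19.4, that of 7 neutrophil genes (3 higher) 1392 to 1720 against 146 to 846, and that of 4 platelet genes (4 higher) 12.3 to 49.9 against 0.328 to 2.81. None of these lists had a gene below 1 FPKM in every sample. Plasma cell genes (3 measured, 1 higher) summed to 88.1 to 148 FPKM against 20.7 to 24.8 FPKM. Most of that sum was Jchain, the gene called (81.5 to 143 against 18.6 to 22.2 FPKM). Sdc1 was not called, Prdm1 was not tested, and both overlapped between the groups. The 8 T and NK cell genes (11.5 to 66.1 against 7.30 to 14.5) and 3 mature B-cell genes (26.9 to 82.7 against 45.8 to 99.2) held no call, and 1 of 10 proliferation genes was higher (1103 to 1777 against 742 to 1259.5). In bulk samples, fewer cells of a type and less RNA per cell cannot be told apart.

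The orthologs did not move as 1 block. Of the 44 tested, 10 differed between leukemic and preleukemic samples (limma on log2(FPKM + 1), adjusted p under 0.05), beside 14.7% of all genes tested in either direction. The 10 were 5 higher and 5 lower in leukemic samples. That is 11.4% of the tested orthologs in each direction, beside 8.47% higher and 6.26% lower among all genes tested. With each sample scaled by its median of ratios instead, 6 were higher and 2 lower. Their median log2 fold change was -0.01, beside -0.02 over all genes tested, and 19 of 44 were above 0. The leukemic values lay wholly above the preleukemic values for 9 orthologs and wholly below for 8, beside 14.9% and 17.1% of all genes (32% in either direction). The genes higher were U2af1 and Wdr4 on chromosome 17 and Ifnar2, App and Itsn1 on chromosome 16. The genes lower were Runx1, Bach1, Son and Ifngr2 on chromosome 16 and Mcm3ap on chromosome 10.

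By role, 0 of 11 transcription factor and chromatin genes were higher and 2 lower (median -0.07, 2 above 0), and among 7 RNA and ribosome genes 2 were higher and 2 lower. Of 6 cytokine receptor and immune surface genes, 1 was higher and 1 lower. Of 7 signaling and membrane traffic genes and of 6 protein turnover genes, 1 each was higher and 0 lower. Neither of the 2 replication and centrosome genes nor any of the 5 metabolism genes was called. Beside these stand 8.47% higher, 6.26% lower and 47.9% above 0 over all genes tested. Groups this small cannot be told apart from those shares, and no role was tested against them.

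**Figure D1:**
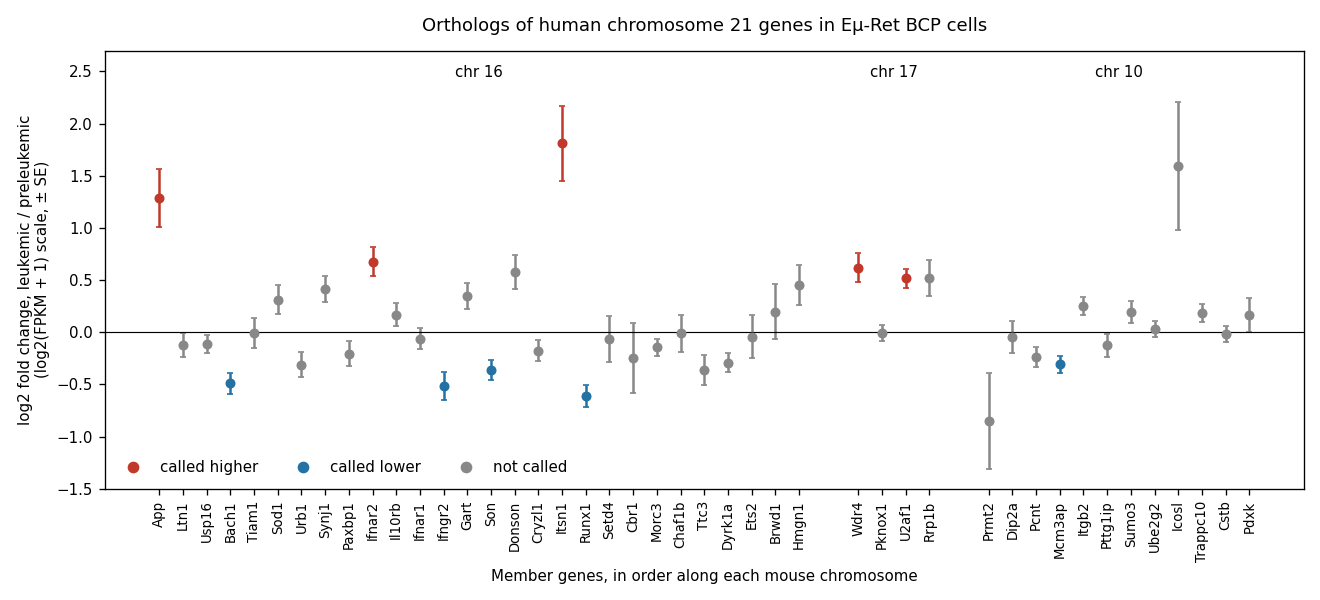
Log2 fold change (leukemic over preleukemic, on the log2(FPKM + 1) scale) of the 44 tested orthologs with its standard error, in order along mouse chromosomes 16, 17 and 10. Red and blue points are the 5 genes called higher and the 5 called lower; 3 of the 4 genes of chromosome 17 sit at 0.52 to 0.62, while those of chromosomes 16 and 10 lie on both sides of 0.

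The orthologs on chromosome 17 lie within 0.569 Mb (chr17:31494322-32062862, GRCm38). U2af1 and Wdr4 were higher in leukemic samples, Rrp1b had a fold change of the same size that did not pass the threshold, and Pknox1 did not differ. U2af1, at chr17:31647082-31658754, encodes the small subunit of the factor that recognizes the end of introns during splicing, and it was the most highly expressed of them. Its level was 153, 149 and 126 FPKM in leukemic replicates 1 to 3 and 98.9, 95.0, 104 and 98.2 FPKM in preleukemic replicates 1 to 4. All 3 leukemic samples lay above all 4 preleukemic samples, with means of 143 ± 14.9 FPKM (SD, n = 3) and 99.1 ± 3.87 FPKM (SD, n = 4) and a log2 fold change of 0.52 (SE 0.09, adjusted p = 0.0167).

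Wdr4, at chr17:31494322-31512487, encodes the partner of the tRNA methyltransferase Mettl1. Wdr4 was at 15.96, 16.6 and 20.6 FPKM in leukemic samples and at 10.7, 13.4, 11.5 and 9.40 FPKM in preleukemic samples. The groups did not overlap, and the means of 17.7 ± 2.52 and 11.2 ± 1.66 FPKM (SD, n = 3 and 4) gave a log2 fold change of 0.62 (SE 0.14, adjusted p = 0.0285). Rrp1b, at chr17:32036162-32062862, encodes a nucleolar protein of ribosome biogenesis. It was at 13.0, 14.3 and 17.4 FPKM in leukemic samples and at 9.56, 13.6, 9.25 and 8.35 FPKM in preleukemic samples. Preleukemic replicate 2 lay within the range of the leukemic samples, and the log2 fold change of 0.52 had an SE of 0.17 (adjusted p = 0.0838).

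Pknox1, which encodes a homeodomain protein that pairs with Pbx factors, lies between Wdr4 and U2af1 at chr17:31564773-31607693. It was at 20.3, 19.0 and 18.8 FPKM in leukemic samples and at 20.1, 18.1, 19.4 and 20.1 FPKM in preleukemic samples. The ranges overlapped, with a log2 fold change of -0.01 (SE 0.08, adjusted p = 0.962). Cbs, the gene of cystathionine beta-synthase, lies in the same interval but was at most 0.328 FPKM in any sample and was not tested. Leaving out 1 sample at a time ended the call of U2af1 without preleukemic replicate 2, 3 or 4 (adjusted p = 0.0503, 0.0517 and 0.0627). It ended that of Wdr4 without leukemic replicate 3 or preleukemic replicate 1, 3 or 4 (adjusted p = 0.0595, 0.0678, 0.0784 and 0.0841), with log2 fold changes of 0.51 to 0.63 for Wdr4 and 0.50 to 0.54 for U2af1 in these fits.

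The fold changes of U2af1, Wdr4 and Rrp1b were set beside those of the rest of chromosome 17. Of 588 other tested genes of the chromosome, 197 were higher and 3 lower in leukemic samples, with a median log2 fold change of 0.34 and quartiles of 0.14 and 0.57, and 85.0% were above 0. With the orthologs included, 33.6% of tested chromosome 17 genes were higher and 0.507% lower. U2af1 and Rrp1b therefore lay between the median and the upper quartile of their chromosome, Wdr4 lay above the upper quartile, and Pknox1 lay below the lower quartile. On chromosome 16, 15 of 308 other genes were higher and 28 lower (median -0.09), and on chromosome 10, 31 of 497 were higher and 42 lower (median -0.05).

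**Figure D2:**
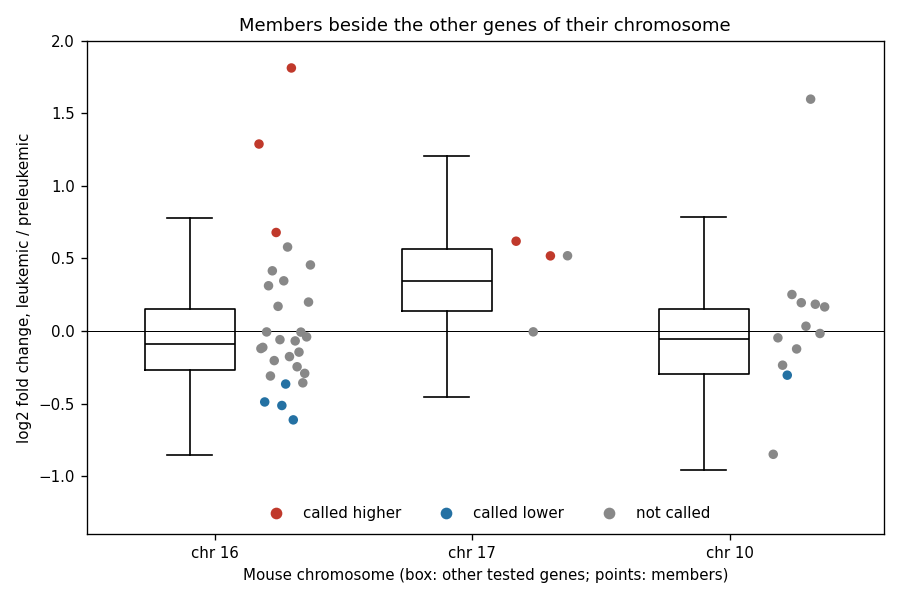
Log2 fold changes of the tested orthologs (points) beside those of the other tested genes of the same mouse chromosome (boxes: median and quartiles; genes far outside the box are not drawn). The box of chromosome 17 lies above 0, with a median of 0.34, and the boxes of chromosomes 16 and 10 span 0.

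A level of each chromosome was computed in every sample from genes that are no orthologs in the list, as the median deviation from the 7-sample mean less that of all genes. For chromosome 17 (490 genes) it was 0.20, 0.20 and 0.24 on the log2 scale in leukemic samples and -0.22, -0.20, -0.06 and -0.19 in preleukemic samples. The groups were apart by 0.38 (exact permutation test over 35 labelings, two-sided, p = 0.0286, the smallest this design allows, 0.0429 adjusted over 3 chromosomes). The difference was -0.05 for chromosome 16 (255 genes, exact permutation p = 0.0286, adjusted p = 0.0429) and -0.04 for chromosome 10 (421 genes, exact permutation p = 0.0571, adjusted p = 0.0571). The median subtracted includes the genes of chromosome 17, and no chromosome beyond these 3 was scored. Differences this small therefore cannot be read as particular to chromosome 16 or 10. For the 4 tested orthologs of chromosome 17 the median deviation was taken without subtracting that of all genes. It was 0.17, 0.26 and 0.32 in leukemic and -0.25, -0.06, -0.19 and -0.35 in preleukemic samples. The 4 include U2af1 and Wdr4, already called higher, and Pknox1, which did not differ.

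**Figure D3:**
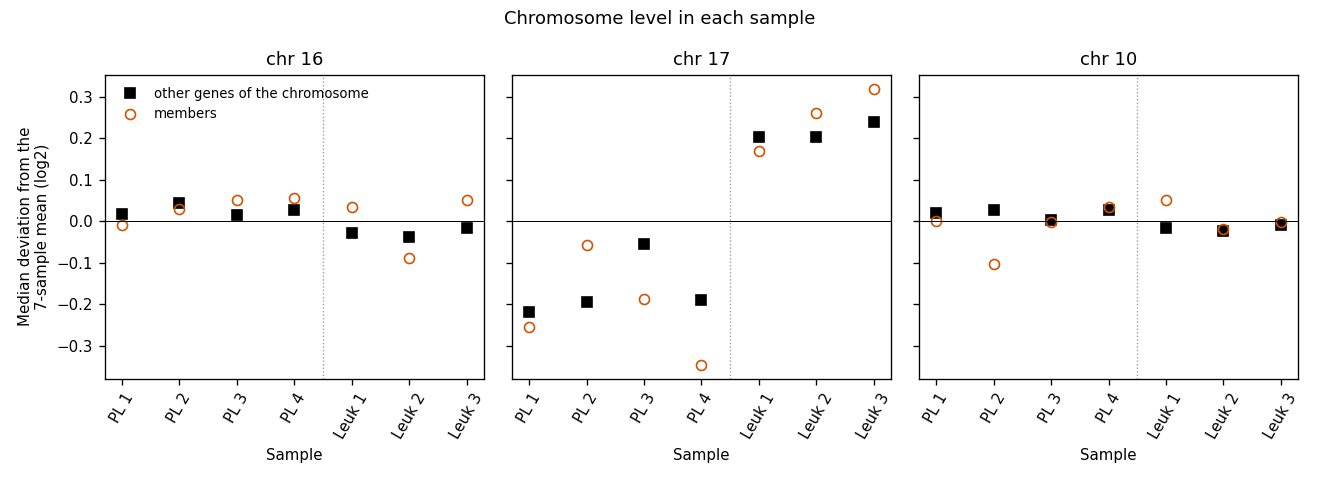
Chromosome level in each of the 4 preleukemic (PL) and 3 leukemic (Leuk) samples, as a median deviation on the log2 scale, for the other genes of the chromosome (squares) and for the orthologs (circles). The median of all genes is subtracted for the squares only. On chromosome 17 all 3 leukemic samples lie above 0 and all 4 preleukemic samples below it, for both sets of genes.

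The stretches before the start sites of the chromosome 17 genes are shown for the genes whose fold changes lay near or above those of their chromosome. Each is the 250 bases before a RefSeq start on GRCm38.p6, written 5′ to 3′ on the gene's strand. The reference is C57BL/6J and the mice were BALB/c. Capitals mark matches on either strand to any of 4 short motifs. The first is the GC box bound by Sp1-type factors, spelled GGGCGG. The next is the CCAAT box, which is spelled as it is named and is bound by the NF-Y factor. The ETS core, bound by factors such as Ets2 and Erg, was searched as CCGGAA. The RUNX site, bound by factors such as Runx1, was searched in the spelling TGTGGT.
Wdr4, minus strand, chr17:31512488-31512737: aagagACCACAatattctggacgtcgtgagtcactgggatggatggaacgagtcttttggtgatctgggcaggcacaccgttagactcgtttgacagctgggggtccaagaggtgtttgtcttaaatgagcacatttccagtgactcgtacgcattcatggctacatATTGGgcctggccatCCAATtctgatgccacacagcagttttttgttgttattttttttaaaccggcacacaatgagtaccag
U2af1, minus strand, chr17:31658765-31659014: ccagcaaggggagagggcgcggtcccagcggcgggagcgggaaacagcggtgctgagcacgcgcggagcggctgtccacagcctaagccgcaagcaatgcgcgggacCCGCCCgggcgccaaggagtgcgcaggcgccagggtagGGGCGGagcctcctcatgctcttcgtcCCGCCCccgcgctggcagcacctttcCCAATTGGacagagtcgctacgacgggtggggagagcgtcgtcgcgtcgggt
Rrp1b, plus strand, chr17:32035912-32036161: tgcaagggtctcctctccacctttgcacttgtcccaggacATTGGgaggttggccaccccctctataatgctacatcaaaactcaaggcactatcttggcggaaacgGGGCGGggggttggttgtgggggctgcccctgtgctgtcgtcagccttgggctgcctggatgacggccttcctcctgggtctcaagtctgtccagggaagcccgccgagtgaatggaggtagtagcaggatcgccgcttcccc
The U2af1 window held 3 GC boxes and 2 overlapping CCAAT matches, at 71.6% G and C. The Rrp1b window held 1 GC box and 1 CCAAT match at 60.4%, and the Wdr4 window 2 CCAAT matches and 1 RUNX match at 46.8%. U2af1 and Rrp1b each had a further RefSeq start whose window is not shown. That of U2af1 held the same numbers of matches, and that of Rrp1b (chr17:32048035-32048284) held none of the motifs, at 44.4%. Over 32851 RefSeq promoter windows of this length, 32.7% held a GC box, 33.8% a CCAAT box, 12% an ETS core and 14% a RUNX site, so a match is a description of the letters only. A window was found for 41 of the 47 orthologs.

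On chromosome 16 the called genes moved in both directions, with 3 higher and 4 lower of 28 tested, a median log2 fold change of -0.06 and 10 above 0. On this chromosome 5.36% of tested genes were higher and 9.52% lower. Runx1, at chr16:92601466-92826074, encodes a transcription factor needed for definitive hematopoiesis and B-cell development and a frequent target of lesions in human leukemia. Its level was 18.6, 17.6 and 19.1 FPKM in leukemic samples and 24.9, 33.1, 27.8 and 29.7 FPKM in preleukemic samples. All leukemic samples lay below all preleukemic samples, with means of 18.5 ± 0.762 and 28.9 ± 3.43 FPKM (SD, n = 3 and 4), a log2 fold change of -0.61 (SE 0.11) and an adjusted p of 0.0167. The summed B-cell precursor marker level was also lower in leukemic samples, as given above. Its part in this and the other lower calls was not tested. Cbfb, the gene of the Runx1-binding partner, was at 96.6 to 119 FPKM against 107 to 124 FPKM (log2 fold change -0.16, adjusted p = 0.277).

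Bach1 encodes a heme-sensing repressor of Hmox1. It was at 12.4, 14.8 and 15.2 FPKM in leukemic samples and at 18.4, 21.5, 19.8 and 21.05 FPKM in preleukemic samples. These ranges did not overlap, with a log2 fold change of -0.49 (SE 0.10, adjusted p = 0.0232). Hmox1, the heme oxygenase gene, was higher, at 9.78, 34.2 and 12.5 FPKM against 3.01 to 5.33 FPKM (log2 fold change 1.89, adjusted p = 0.0250). Its highest value was in leukemic replicate 2, which also had the highest summed erythroid (19692 FPKM) and macrophage (231 FPKM) marker levels; their part in the result was not tested. Without preleukemic replicate 3 or 4 the adjusted p was 0.0549 and 0.0627 for Runx1 and 0.0696 and 0.0814 for Bach1, and for Bach1 it was 0.0661 without preleukemic replicate 2.

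The other transcription factor and chromatin genes of chromosome 16 were not called. Hmgn1, which encodes a nucleosome-binding protein, was at 211, 132 and 125 FPKM in leukemic samples and at 115, 93.7, 125 and 110.5 FPKM in preleukemic samples. Leukemic replicate 1 stood highest, and leukemic replicate 2 also lay above every preleukemic sample. Leukemic replicate 3 lay just below preleukemic replicate 3, so the groups overlapped (log2 fold change 0.45, SE 0.19, adjusted p = 0.144). Ets2, the gene of an ETS-family factor, was low, at 2.73, 1.40 and 1.57 FPKM against 1.74, 1.78, 2.04 and 2.16 FPKM (log2 fold change -0.04, adjusted p = 0.904). Chaf1b, a subunit of the histone chaperone CAF-1, was at 32.9 to 47.4 FPKM in leukemic and 29.7 to 46.3 FPKM in preleukemic samples (log2 fold change -0.01). Usp16, Morc3, Setd4 and Brwd1 had log2 fold changes from -0.15 (Morc3) to 0.20 (Brwd1), all with overlapping groups.

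The receptor genes Ifnar2, Il10rb, Ifnar1 and Ifngr2 lie next to one another on chromosome 16 and encode chains of the receptors for type I interferon, interleukin-10 and related cytokines, and interferon gamma. One was higher, 1 was lower and 2 did not pass the test. Ifnar2, at chr16:91372783-91405587, was at 22.8, 29.7 and 26.6 FPKM in leukemic samples and at 16.5, 13.9, 14.9 and 19.3 FPKM in preleukemic samples. All leukemic samples lay above all preleukemic samples (means 26.4 ± 3.46 and 16.1 ± 2.35 FPKM, SD, n = 3 and 4), with a log2 fold change of 0.68 (SE 0.14, adjusted p = 0.0222).

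Ifngr2, at chr16:91547094-91564007, was at 34.7, 41.0 and 50.2 FPKM in leukemic samples and at 52.8, 66.1, 59.0 and 61.3 FPKM in preleukemic samples. All leukemic samples lay below all preleukemic samples (means 41.9 ± 7.78 and 59.8 ± 5.51 FPKM, SD, n = 3 and 4), with a log2 fold change of -0.51 (SE 0.14) and an adjusted p of 0.0465, just inside the threshold. Ifnar1, whose product pairs with that of Ifnar2, was at 12.7, 10.8 and 13.5 FPKM against 11.9, 12.4, 14.2 and 13.0 FPKM (log2 fold change -0.06, SE 0.10, adjusted p = 0.705). Il10rb was at 18.2, 14.9 and 16.1 FPKM against 13.1, 15.6, 13.2 and 16.1 FPKM (log2 fold change 0.17, SE 0.11, adjusted p = 0.313). Both overlapped between the groups. The call of Ifnar2 was lost without preleukemic replicate 2, 3 or 4 (adjusted p = 0.0592, 0.0701 and 0.0515), and that of Ifngr2 without any 1 sample other than leukemic replicate 3 (adjusted p = 0.0615 to 0.127). Ifngr2 also lost its call with median-of-ratios scaling, with no filter on low values and without the trend (adjusted p = 0.0565, 0.0598 and 0.0549).

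The windows before the starts of the receptor genes that moved in opposite directions are shown side by side, with the same motifs in capitals.
Ifnar2, plus strand, chr16:91372533-91372782: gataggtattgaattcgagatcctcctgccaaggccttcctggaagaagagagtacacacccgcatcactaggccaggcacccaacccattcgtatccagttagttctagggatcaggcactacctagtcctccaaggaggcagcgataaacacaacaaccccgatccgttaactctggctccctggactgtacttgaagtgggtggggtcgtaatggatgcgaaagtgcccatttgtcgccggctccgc
Ifngr2, plus strand, chr16:91546809-91547058: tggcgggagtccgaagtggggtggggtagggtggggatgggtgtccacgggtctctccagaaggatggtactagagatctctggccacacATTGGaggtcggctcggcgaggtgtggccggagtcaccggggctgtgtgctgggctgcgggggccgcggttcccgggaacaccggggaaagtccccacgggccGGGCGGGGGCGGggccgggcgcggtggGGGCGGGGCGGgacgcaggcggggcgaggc
The Ifngr2 window held 4 GC boxes and 1 CCAAT match at 74% G and C, and the Ifnar2 window held none of the motifs searched, at 54%.

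**Figure D4:**
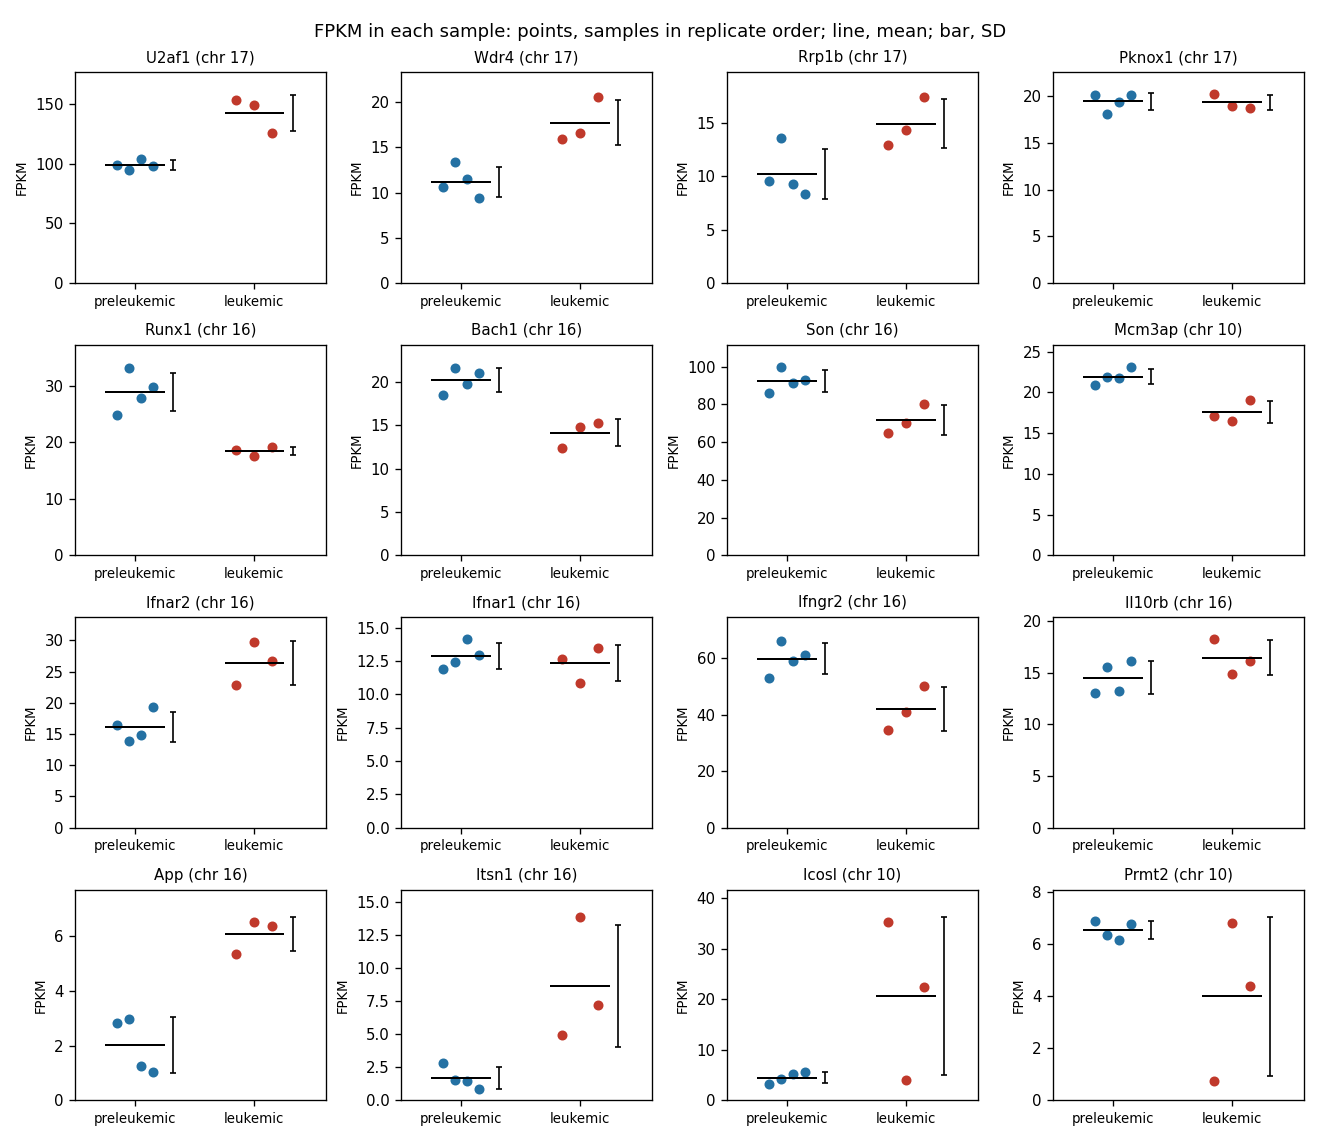
FPKM of 16 orthologs in each sample (points, in replicate order), with the group mean (line) and SD (bar) for 4 preleukemic and 3 leukemic samples; each panel has its own axis from 0. The groups are apart for the 10 called genes, among them Ifnar2 (higher) and Ifngr2 (lower), and overlap for Rrp1b, Pknox1, Ifnar1, Il10rb, Icosl and Prmt2.

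Son encodes a splicing cofactor of nuclear speckles. It was at 64.8, 70.2 and 80.2 FPKM in leukemic samples and at 86.1, 99.7, 91.2 and 92.8 FPKM in preleukemic samples. The groups did not overlap, and the log2 fold change was -0.37 (SE 0.10, adjusted p = 0.0445), a call that was lost without any 1 sample other than leukemic replicate 3 (adjusted p = 0.0661 to 0.12). Son also lost its call with median-of-ratios scaling, with an FPKM sum of at least 70 and without the trend (adjusted p = 0.0574, 0.0517 and 0.0553). Its neighbors Gart, a purine synthesis gene (0.35, adjusted p = 0.101), and Donson, a replication fork gene (0.58, adjusted p = 0.0518), had positive log2 fold changes that did not pass. Donson was just outside the threshold, at 21.8, 19.3 and 18.3 FPKM against 15.2, 10.1, 15.6 and 11.5 FPKM, with no overlap between the groups. Paxbp1 and Synj1 are listed with the same coordinates, so how reads were divided between them is uncertain. The same holds for Ttc3 with Pigp and for Usp16 with Cct8, where Pigp and Cct8 are orthologs outside the list. Synj1 had a log2 fold change of 0.41 (adjusted p = 0.0651) and Paxbp1 one of -0.20. Urb1, a ribosome biogenesis gene, was at 4.86 to 6.23 FPKM against 6.27 to 8.07 FPKM (log2 fold change -0.31, adjusted p = 0.12).

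Itsn1, which encodes a scaffold of endocytosis, had the largest log2 fold change of the orthologs. It was at 4.94, 13.9 and 7.25 FPKM in leukemic samples and at 2.80, 1.55, 1.46 and 0.810 FPKM in preleukemic samples. Leukemic samples lay above every preleukemic sample, and the log2 fold change was 1.81 (SE 0.36, adjusted p = 0.0217). App, the gene of the amyloid precursor protein, was at 5.35, 6.52 and 6.38 FPKM against 2.84, 2.97, 1.26 and 1.03 FPKM. These groups did not overlap either, with a log2 fold change of 1.29 (SE 0.27, adjusted p = 0.0261). The summed erythroid marker level, like Itsn1, was highest in leukemic replicate 2 among leukemic samples (19692 FPKM) and in preleukemic replicate 1 among preleukemic samples (1847 FPKM); its part in the result was not tested. The call of Itsn1 was lost without preleukemic replicate 2, 3 or 4 (adjusted p = 0.0610, 0.0663 and 0.0700) and that of App without leukemic replicate 2 or 3 or preleukemic replicate 3 or 4 (adjusted p = 0.0502, 0.0564, 0.0727 and 0.0700).

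Dyrk1a, a kinase gene known for dosage effects in trisomy of human chromosome 21, was at 25.1, 23.2 and 24.1 FPKM in leukemic samples and at 27.8, 27.2, 31.6 and 32.7 FPKM in preleukemic samples. All leukemic samples lay below all preleukemic samples, but the log2 fold change of -0.29 (SE 0.09) did not pass (adjusted p = 0.0710). Tiam1, an activator of Rac, had a log2 fold change of -0.01. Ttc3, a ubiquitin ligase gene, had one of -0.36 (adjusted p = 0.128) and Ltn1, the ligase of stalled ribosomes, one of -0.12. Ttc3 passed without leukemic replicate 3 (-0.53, adjusted p = 0.0269). That replicate, at 18.8 FPKM, lay within the preleukemic range of 17.7 to 19.9 FPKM. The fit therefore drops the very sample that differed from the other leukemic samples, and its p-value is no separate evidence.

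Sod1, which encodes cytosolic superoxide dismutase, had the highest level of all the orthologs. It was at 399.6, 353 and 284 FPKM in leukemic samples and at 322, 245, 271 and 271 FPKM in preleukemic samples. Preleukemic replicate 1 lay within the leukemic range, and the log2 fold change of 0.31 (SE 0.14) did not pass (adjusted p = 0.16). Sod2, the gene of the mitochondrial counterpart, lies on chromosome 17 and was higher, at 22.5, 27.6 and 24.99 FPKM against 13.7 to 19.3 FPKM (log2 fold change 0.63, adjusted p = 0.0244). The carbonyl reductase gene Cbr1 (-0.25, adjusted p = 0.626) and Cryzl1 (-0.18, adjusted p = 0.262) were not called. Bace2, a protease gene, was at most 0.219 FPKM and was not tested. Bace1, its counterpart on chromosome 9, was lower, at 0.0336, 0.242 and 2.697 FPKM against 6.79 to 10.8 FPKM (log2 fold change -2.43, adjusted p = 0.0171).

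On chromosome 10, 0 of 12 orthologs tested were higher and 1 was lower, beside 6.09% and 8.45% of the tested genes of that chromosome, and the median log2 fold change was 0.01. Mcm3ap, whose product works in mRNA export, was at 17.1, 16.5 and 19.1 FPKM in leukemic samples and at 20.9, 21.8, 21.8 and 23.2 FPKM in preleukemic samples. The groups did not overlap, with a log2 fold change of -0.30 (SE 0.08) and an adjusted p of 0.0467, just inside the threshold and lost without any 1 sample other than leukemic replicate 3 (0.0787 to 0.138). Mcm3ap also lost its call with median-of-ratios scaling and without the trend (adjusted p = 0.0595 and 0.0552). It is listed with the same coordinates as Ybey, an ortholog outside the list, so how reads were divided between them is uncertain. Cstb, a cysteine protease inhibitor gene, was at 64.6, 66.5 and 61.7 FPKM against 66.9, 59.8, 63.8 and 70.02 FPKM, with overlapping groups (log2 fold change -0.02, adjusted p = 0.896).

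The immune genes of chromosome 10 did not pass. Itgb2, the beta chain of the leukocyte integrins, was at 38.5, 39.9 and 43.2 FPKM against 31.6, 32.7, 34.1 and 37.2 FPKM. The groups did not overlap, but the log2 fold change of 0.25 (SE 0.09) gave an adjusted p of 0.0878. Itgam, an alpha chain that pairs with it in myeloid cells, was higher, at 5.62, 4.86 and 9.28 FPKM against 1.31 to 2.85 FPKM (log2 fold change 1.28, adjusted p = 0.0228). The neutrophil and macrophage marker sums were higher in the same samples, as given above, and their part in the result was not tested.

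Icosl, the gene of the ligand of the T-cell costimulator Icos, and Prmt2, an arginine methyltransferase gene, are described because they varied widely within the leukemic group, and were chosen after their values were seen. Icosl was at 35.2, 4.05 and 22.4 FPKM in leukemic samples and at 3.11, 4.12, 5.07 and 5.50 FPKM in preleukemic samples. Leukemic replicates 1 and 3 were high and leukemic replicate 2 lay at the preleukemic level (log2 fold change 1.597, SE 0.61, adjusted p = 0.116). Without leukemic replicate 2 the log2 fold change was 2.44 (adjusted p = 0.00543). That fit drops the very sample that differed from the other leukemic samples, so its p-value is no separate evidence. Prmt2 was at 0.741, 6.81 and 4.39 FPKM against 6.88, 6.35, 6.17 and 6.78 FPKM, with leukemic replicates 1 and 3 below every preleukemic sample and leukemic replicate 2 within their range (log2 fold change -0.85, SE 0.46, adjusted p = 0.23). The other orthologs of chromosome 10 were Pcnt (-0.24), Pttg1ip (-0.12), Dip2a (-0.05), Ube2g2 (0.03), Pdxk (0.17), Trappc10 (0.18) and Sumo3 (0.19), none of them called. Adarb1, an RNA-editing enzyme gene, was at most 0.787 FPKM and was not tested.

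A further 86 orthologs of human chromosome 21 genes outside the list were all in the table. Of the 46 tested, 2 were higher (4.35%) and 7 lower (15.2%), beside 8.47% and 6.26% of all genes tested, with a median log2 fold change of -0.04. Erg, an ETS-family factor of hematopoietic stem cells on chromosome 16, was at 87.9, 89.0 and 61.7 FPKM in leukemic samples and at 133, 179, 126 and 137 FPKM in preleukemic samples. All leukemic samples lay below all preleukemic samples (log2 fold change -0.85, SE 0.17, adjusted p = 0.0225). The others with the largest changes among those called were Clic6 (-2.37, adjusted p = 0.0229) and Hlcs (0.78, adjusted p = 0.0378) on chromosome 16, Pcbp3 on chromosome 10 (-1.16, adjusted p = 0.0142), and Tmprss3 (-1.93, adjusted p = 0.0282) and Ndufv3 (0.71, adjusted p = 0.0128) on chromosome 17. Among 27 genes of partners of the orthologs, 23 were tested, 3 were higher (Hmox1, Itgam and Sod2) and 1 was lower (Bace1), which is 13.04% and 4.35% beside the same shares of all genes, with a median of -0.02.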

How the data were processed

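RNA-seq libraries (stranded mRNA kit) were made from BCP cells of the spleen, 4 preleukemic and 3 leukemic samples. The authors deposited 1 FPKM value per gene and sample, floored at 0.01, for 24341 genes. The submitters' processing notes name STAR 2.5.0b, bedtools 2.17.0, Cufflinks 2.2.1, Bowtie, DESeq2 and the build mm10, with no role given; whether counting used strand is not given in the sources used here. FPKM is no count, so limma 3.58.1 in R 4.3.3 (lmFit, eBayes with a trend) was run on log2(FPKM + 1) without covariates, in place of the count model named in the study's methods. Fold changes on this scale understate those of low genes. The 10541 genes tested had values that added up to 10 FPKM or more over 7 samples and held 99.7% of the FPKM total; p-values were adjusted by Benjamini-Hochberg, and genes were called at an adjusted p under 0.05. The fit was tested on simulated data. In the low values, 78.7 to 85.3% were whole multiples of 1 fragment within 0.15 fragments, beside 30% for evenly spread values, and depth was read from these steps. Any pair of samples had at most 1 identical value above 0.01. The table held 27 gene names turned into dates, kept as listed.

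Chromosome levels were taken over genes averaging 5 FPKM or more, in Python 3.11.15 with an exact permutation test. Starts are printed counting from 1. The orthologs, the lists of roles, partners, other orthologs and cell type markers, and the tests were chosen with earlier results of these data known. Values in every sample are given for called orthologs, the 5 with the highest mean FPKM, Runx1, Ets2, Erg, Dyrk1a and Hmgn1, and 4 receptor chains; at most 6 called genes each are named from the lists of partners and of other orthologs, those with the largest change. Further genes were named after their values were seen. Alternatives were other pseudocounts, scalings and filters, no trend, a replicate block and leaving out each sample.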

Additional observations from a re-analysis of the deposited data

Results flagged for a closer look

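One result stood out by the spread within a group. Cryzl1, a gene of an oxidoreductase-like protein, was at 16.5 FPKM in preleukemic replicate 4, while the other 3 preleukemic samples lay between 15.2 and 15.4 FPKM. Its gap to the nearest of the others was 0.865 of the range of the group. The rule was applied to the preleukemic values of the 44 tested orthologs, and by the construction of its critical value (Dixon's, at the 0.05 level) chance alone flags about 1 in 20 such groups.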

How the results depend on the processing

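Of 606 comparisons of an ortholog under an alternative, 515 kept their direction and side of the threshold, 30 changed sign without being called (on 10 genes), 58 lost a call, 3 gained one (Donson with median-of-ratios scaling, Ttc3 without leukemic replicate 3 and Icosl without leukemic replicate 2) and 0 calls reversed. Leaving out 1 sample gave 0 to 5 orthologs higher and 0 to 6 lower, with 0 of either without preleukemic replicate 3 or 4, where the calls over all genes also fell from 1553 to 271 and 149. The higher count was 3 with an FPKM sum of at least 70 (34 orthologs tested), where App and Itsn1, at sums of 26.4 and 32.7 FPKM, were not tested. The lower count was 2 with median-of-ratios scaling and 2 without the trend, and the cause of that was not tested. The median of the chromosome 16 orthologs was -0.12 with quantile normalization and -0.12 with an FPKM sum of at least 70, and -0.11 to -0.011 with a sample left out. The difference of chromosome 16 was -0.071 to -0.035 and that of chromosome 17 0.36 to 0.41 with a sample left out, designs that cannot reach a p under 0.05 (p = 0.0667 to 0.1, exact permutation). The median of all log2 fold changes was -0.02 as deposited, -0.06 with quantile normalization and 0.01 with median-of-ratios scaling. With the replicate number as a replicate block, 0 orthologs were higher and 0 lower, and 0 genes were called in all. Young healthy and moribund mice are different animals. Deviations of samples with the same number correlated at 0.029, 0.05 and -0.092, within the span of all pairs (-0.113 to 0.112), and so showed no pairing by number. Whether samples of the same number shared a batch was not tested. The block also leaves fewer degrees of freedom than the main fit, which by itself makes calls harder. Counting error limits genes near 1 FPKM.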

Other observations

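Just before Wdr4 on chromosome 17 lies a run of 6 other orthologs, Abcg1, Tmprss3, Ubash3a, Rsph1, Slc37a1 and Pde9a, whose fold changes had the opposite sign to those of U2af1 and Wdr4 and to the median of the chromosome. The run was chosen after its values were seen. The log2 fold changes were -0.30, -1.93, -1.39, -1.61, -0.91 and -1.41 in that order, and Tmprss3 alone passed the test. Each of the 6 was lowest in leukemic replicate 1, for example Pde9a, a phosphodiesterase gene, at 0.350 FPKM there, 20.3 and 9.48 FPKM in leukemic replicates 2 and 3 and 14.2 to 21.3 FPKM in preleukemic samples. Abcg1, a cholesterol transporter gene, was at 2.55 FPKM in leukemic replicate 1, 17.3 and 16.4 FPKM in leukemic replicates 2 and 3 and 9.25 to 16.1 FPKM in preleukemic samples. Ndufv3, the gene of a subunit of mitochondrial complex I that lies after Wdr4, was at 133, 126 and 115 FPKM against 65.0 to 84.6 FPKM.

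Clic6, a chloride channel gene on chromosome 16 next to Runx1, was at 2.71, 2.09 and 0.332 FPKM in leukemic samples and at 20.9, 14.2, 11.7 and 5.50 FPKM in preleukemic samples, and the groups did not overlap. Pcbp3, an RNA-binding protein gene on chromosome 10, was at 8.48, 7.28 and 6.66 FPKM against 24.0, 13.9, 19.6 and 15.6 FPKM, again without overlap.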
